A study of Mus musculus with 4 samples.

Results

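The inflammatory CXC chemokines described here are 7 genes chosen by name, of which 6 had a row among the 28692 gene rows of each library. They were grouped by the receptor their proteins bind. *Cxcl1*, *Cxcl2* and *Cxcl5* encode ligands of CXCR2, *Cxcl9* and *Cxcl10* encode ligands of CXCR3, and *Cxcl16* encodes the ligand of CXCR6. *Cxcl11*, the remaining CXCR3 ligand on the list, was not analysed here. The genes were followed in mesenchymal stromal cells (MSC) sorted from the lamina propria of the small intestine and the colon of untreated female C57BL6/Nrj mice aged 8 to 10 weeks. The sort kept live Itgb1+ cells that lacked CD45, Ter119, CD31, BP3, EpCAM and L1CAM, after the outer muscle layer had been taken off. Each intestine gave 2 single-cell RNA-seq libraries (replicates 1 and 2) from 2 experiments with 3 pooled mice each, so that a replicate is a pool and not a mouse. The study says of its sorted subsets that both intestines came from the same mice. Whether this holds for the small intestinal and colonic libraries with the same number is not stated.

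CXC chemokines are small secreted proteins that steer leukocytes along a gradient. CXCR2 ligands draw neutrophils and are typical early targets of NF-κB after cytokine, microbial or mechanical stimulation, whereas CXCR3 ligands draw activated T cells and NK cells and are typically induced by interferon. CXCL16 differs in being made as a membrane protein that can be shed by ADAM10 or ADAM17, and its receptor CXCR6 is found on resident T cells and innate lymphoid cells.

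All 6 measured genes are protein coding (GENCODE vM21, GRCm38, the build called mm10 in the labels). The CXCR2 ligands lie together on the plus strand of chromosome 5, *Cxcl5* at chr5:90759360-90761624, *Cxcl1* at chr5:90891241-90893115 and *Cxcl2* at chr5:90903871-90905938. The CXCR3 ligands lie 1.42 Mb further on the minus strand, *Cxcl9* at chr5:92321347-92328079 and *Cxcl10* at chr5:92346638-92348889. *Cxcl16* is at chr11:70453983-70459984 on the minus strand. Promoter windows of 300 bases (250 before to 50 after the start, RefSeq, GRCm38.p6, written in the direction of the gene) were at hand for *Cxcl1*, *Cxcl2*, *Cxcl9* and *Cxcl10*, and are shown because the chemokines of the NF-κB and interferon groups were compared throughout. Capitals mark matches to 3 motifs searched on both strands, an NF-κB type motif (GGGA, any 2 bases, then TTCC), an ISRE type motif (GAAA, any 2 bases, then GAAA) and a GAS type motif (TTC, any 3 bases, then GAA).
Cxcl1 chr5:90890995-90891294 (+): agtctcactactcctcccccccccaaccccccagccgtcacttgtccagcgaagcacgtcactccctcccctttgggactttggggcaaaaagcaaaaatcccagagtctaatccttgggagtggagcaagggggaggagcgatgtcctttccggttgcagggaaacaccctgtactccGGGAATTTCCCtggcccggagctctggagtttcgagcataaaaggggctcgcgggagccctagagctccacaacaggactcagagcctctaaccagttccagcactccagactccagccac
Cxcl2 chr5:90903649-90903948 (+): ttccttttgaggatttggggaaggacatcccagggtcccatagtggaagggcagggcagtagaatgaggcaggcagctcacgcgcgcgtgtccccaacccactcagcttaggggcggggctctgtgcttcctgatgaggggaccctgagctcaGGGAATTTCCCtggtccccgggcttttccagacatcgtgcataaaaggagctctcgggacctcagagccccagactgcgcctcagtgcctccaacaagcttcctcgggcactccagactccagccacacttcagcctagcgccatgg
Cxcl9 chr5:92328030-92328329 (-): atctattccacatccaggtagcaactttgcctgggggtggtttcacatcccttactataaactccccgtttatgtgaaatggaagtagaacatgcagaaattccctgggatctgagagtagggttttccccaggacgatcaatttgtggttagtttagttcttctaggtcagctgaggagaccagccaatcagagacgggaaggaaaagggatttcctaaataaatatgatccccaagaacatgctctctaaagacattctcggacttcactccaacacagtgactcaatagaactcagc
Cxcl10 chr5:92348840-92349139 (-): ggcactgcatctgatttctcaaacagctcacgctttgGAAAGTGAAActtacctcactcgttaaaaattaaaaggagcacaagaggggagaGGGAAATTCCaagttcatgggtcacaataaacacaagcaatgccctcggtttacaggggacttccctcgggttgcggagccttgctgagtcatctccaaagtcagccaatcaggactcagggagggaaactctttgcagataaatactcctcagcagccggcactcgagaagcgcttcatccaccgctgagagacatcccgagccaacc
The windows of *Cxcl1* and *Cxcl2* each held the NF-κB letters on both strands at overlapping positions, which gives the same run of capitals in both genes. That of *Cxcl10* held one NF-κB match (GGGAAATTCC) and one ISRE match (GAAAGTGAAA), and that of *Cxcl9* held none of the 3. Of all 32851 windows of this length, 1.47% held the NF-κB letters, 3.44% the ISRE letters and 8.3% the GAS letters.

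Depth was 14341443 to 52269372 unique molecular identifiers (UMIs) per library. The replicate 1 libraries held 1340 and 2131 MSC at a median of 8145 and 9253 UMIs, and the replicate 2 libraries held 15154 and 12463 MSC at a median of 2790 and 3930 UMIs, so depth per cell, cell number and Cell Ranger version all followed the replicate number. Between 0 and 69 cell barcodes were shared by any pair of libraries. Cells were assigned to classes by fixed marker genes, none of them a chemokine. PDGFRα-high fibroblasts (FB), which underlie the epithelium, numbered 165 and 1237 in the small intestinal libraries (replicates 1 and 2) and 607 and 2921 in the colonic ones. CD81+ FB, gated on the mean of *Cd81*, *Cd34*, *Ackr4*, *Grem1*, *Rspo3* and *Pi16*, numbered 304 and 2759, and 252 and 2070. These 6 markers summed to 2956 to 3604 CPM in CD81+ FB and were not confined to them, with 763 to 873 CPM in FB that passed neither gate. The remaining FB, which passed neither gate, numbered 761 and 10991, and 915 and 6535. No gate was set for the Fgfr2+ and Igfbp5+ FB that the study names in small intestine, or for its Fgfr2+ and CD90+ FB of colon. *Fgfr2* was at 170.0 and 149.4 CPM in small intestinal and 143.5 and 72.3 CPM in colonic remaining FB. A shift in the make-up of this class and a change per cell cannot be told apart. The CD81 score was continuous, and 891 and 1202 FB of the replicate 2 libraries lay within 0.1 of the cut. Smooth muscle cells (SMC, 61 to 883 per library) and pericytes (38 to 72) complete the MSC.

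Markers of other cells were low in the MSC. The same markers had served to gate such cells out, so these levels are in part set by the gate and do not test purity. Immune markers (*Ptprc*, *Coro1a*, *Laptm5*, *Tyrobp* and *Fcer1g*) summed to 5.06 to 15.1 UMIs per 1000000 UMIs (CPM) and all 5 were above 0 in each library, with *Ptprc*, which encodes CD45, at 0.0989 to 0.667 CPM. The 7 endothelial markers summed to 2.92 to 6.76 CPM, with *Cldn5* at 0 in small intestine replicate 2. The gate set aside 342 and 235 endothelial cells in the replicate 1 libraries of small intestine and colon, against 1 and 21 in replicate 2. As a guide to free RNA, levels were read in the 51 plasma cells of small intestine replicate 1, which should lack these chemokines and had a median of 27940 UMIs. The other libraries held 0 to 2 plasma cells. In the 51 plasma cells of small intestine replicate 1, *Cxcl1*, *Cxcl2*, *Cxcl5* and *Cxcl9* had 0 UMIs, which by a floor of 3 counts allows up to 5.88% of cells with a UMI. *Cxcl16* had 1 UMI. *Cxcl10* was found in 19.6% of these cells (95% exact interval 9.82 to 33.1) at 85.2 CPM, below its level in the MSC of the same library, 908.9 CPM. A single cell held 54 of the 123 *Cxcl10* UMIs, and after thinning 1.96% of the plasma cells held one. Whether this *Cxcl10* was free RNA was not tested. Intervals cover counting error only.

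The first question was whether MSC of the 2 intestines differ in these genes. Of the 6 genes, 5 had every colon library below every small intestinal library in CPM of the summed MSC, against 15.5% of the 14177 genes tested. None passed the test across all genes (edgeR quasi-likelihood on 2 against 2 libraries, calling genes beyond 1.5 on the log2 scale whose Benjamini-Hochberg adjusted p was under 0.05), in which 0% of genes were called, 1596 genes having an unadjusted p under 0.05 and DESeq2 calling 557. *Cxcl5* and *Cxcl16* were called by DESeq2, without the filter on low counts and after thinning, and *Cxcl9* by DESeq2. With replicate number as a block, *Cxcl2*, *Cxcl5*, *Cxcl9* and *Cxcl16* were called, though no label says that same-numbered libraries share mice or a batch. The blocked results, also for single classes, are given at the end. The shares of the classes enter these sums, so that more cells of a class and more RNA per cell cannot be told apart in them. Differences below are colon minus small intestine on the log2 scale, with the standard error (SE).

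*Cxcl1*, a neutrophil attractant also called KC, reached 1794 and 1763 CPM in the small intestinal replicates 1 and 2, and 1015 and 2009 CPM in the colonic ones. The colon libraries bracketed those of the small intestine, and the difference was −0.29 (SE 0.45, 95% interval −1.50 to 0.93, adjusted p = 0.937). Within replicate numbers the difference was −0.82 in replicate 1 and 0.19 in replicate 2. *Cxcl2*, the neutrophil attractant MIP-2, reached 327.9 and 768.8 CPM in the small intestinal replicates 1 and 2, and 39.8 and 227.3 CPM in the colonic ones. Replicate 2 was above replicate 1 in both intestines, and the difference was −2.07 (SE 1.02, adjusted p = 0.605), with −3.01 in replicate 1 and −1.75 in replicate 2. Leaving out a library gave −3.97 to −1.28. *Cxcl5*, known as LIX, was the sparsest of the CXCR2 ligands, with 46.7 and 63.2 CPM in small intestine against 2.91 and 6.23 CPM in colon. Its libraries were far apart, with 490 and 2789 UMIs against 58 and 315, and the difference was −3.62 (SE 0.53, 95% interval −5.06 to −2.18, adjusted p = 0.116). After each cell had been thinned to 1000 UMIs, 3.13% and 4.30% of small intestinal and 0.235% and 0.53% of colonic MSC held a *Cxcl5* UMI, compared with 10.2% and 8.99%, and 1.46% and 1.39%, at full depth. In the 342 endothelial cells of small intestine replicate 1 (median 4434 UMIs) *Cxcl5* had 0 UMIs, which allows up to 0.877% of cells with a UMI at this depth and sets no limit on cells that express the gene.

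*Cxcl9*, which encodes the interferon-gamma induced chemokine MIG, reached 84.7 and 89.4 CPM in the small intestinal replicates 1 and 2, and 11.5 and 29.0 CPM in the colonic ones. The groups did not overlap, and the difference was −2.14 (SE 0.55, adjusted p = 0.263). *Cxcl10*, which encodes IP-10, reached 908.9 and 1273 CPM in the small intestinal replicates 1 and 2, and 275.0 and 892.6 CPM in the colonic ones. Its groups nearly met, since colon replicate 2 lay just under small intestine replicate 1, and the difference was −0.94 (SE 0.68, 95% interval −2.79 to 0.90, adjusted p = 0.782). Within replicate numbers the *Cxcl10* difference was −1.72 and −0.51, and leaving out a library gave −2.16 to −0.29.

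*Cxcl16* had the smallest SE of the 6 genes, with 229.1 and 239.2 CPM in the small intestinal and 68.2 and 49.4 CPM in the colonic libraries. Both replicate numbers gave a like difference, −1.74 and −2.25, and the fitted value was −2.09 (SE 0.23, 95% interval −2.70 to −1.48, adjusted p = 0.0802). Thinned to 1000 UMIs per cell, 20.2% ± 0.617 of small intestinal and 5.36% ± 1.19 of colonic MSC (SD, n = 2 libraries each) held a *Cxcl16* UMI. At full depth the shares were 65.2% and 44.9% for the small intestinal and 37.5% and 15.6% for the colonic libraries, which follow depth as well as intestine.

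**Figure D1:**
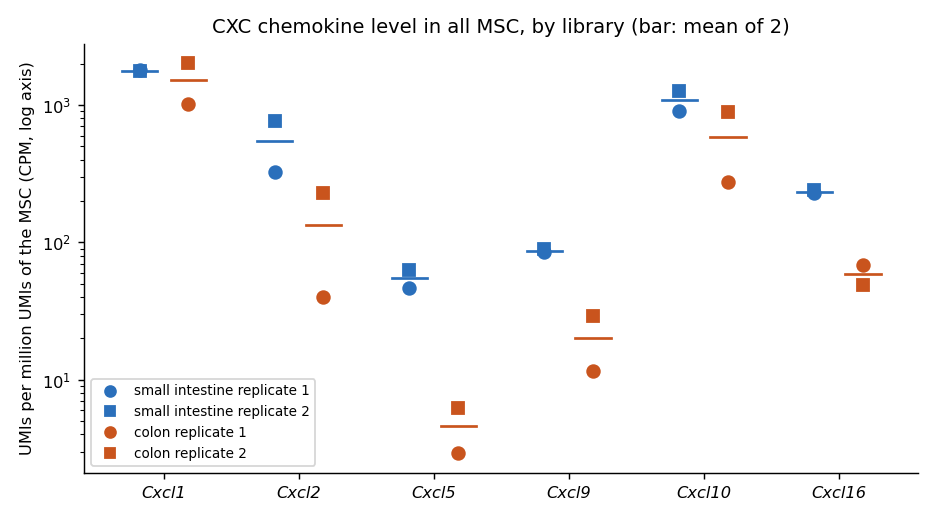
CPM of the 6 chemokine genes in the summed MSC of each library (log axis), with small intestine in blue and colon in orange, circles for replicate 1, squares for replicate 2 and a bar at the mean of 2 libraries. The 2 small intestinal points of *Cxcl16* lie at 229.1 and 239.2 CPM and the colonic points at 68.2 and 49.4 CPM, while the colonic points of *Cxcl1* bracket those of small intestine.

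Within FB classes, the one chemokine called between the intestines was *Cxcl16* in PDGFRα-high FB. It reached 334.9 and 265.3 CPM in the small intestinal and 47.0 and 31.1 CPM in the colonic libraries, a fall by 2.82 (SE 0.31, 95% interval −3.62 to −2.03, adjusted p = 0.0332). All 6 genes were tested in this class, in which 1.31% of 11719 genes were called, and 4 of the 6 had colon below small intestine without overlap, against 25.4% of all genes. Leaving out small intestine replicate 1 or replicate 2 raised the adjusted p to 0.0924 or 0.0916 at log2 differences of −2.67 and −2.97. *Cxcl1* and *Cxcl10* did not pass in this class, with *Cxcl1* at 564.7 and 758.7 CPM against 686.3 and 1026 (difference 0.52, adjusted p = 0.774) and *Cxcl10* at 134.8 and 424.3 CPM against 178.5 and 561.4 (0.56, adjusted p = 0.943). *Cxcl5* was at 29.6 and 8.12 CPM against 0.443 and 2.02, values that rest on 44, 26, 3 and 26 UMIs in this order. A single cell held 41 of the 44 from small intestine replicate 1, and a single cell held all 3 from colon replicate 1. The 7 SMC markers summed to 10650 and 6793 CPM in PDGFRα-high FB of small intestine and to 5242 and 2775 CPM in those of colon, and their part was not tested. The 6 pericyte markers summed to 1144 and 910.9 CPM in PDGFRα-high FB of small intestine and to 153.2 and 123.1 CPM in those of colon. Of them, *Kcnj8* was at 642.2 and 329.7 CPM against 94.2 and 51.5, *Abcc9* at 308.6 and 269.0 against 28.6 and 28.0, *Rgs5* at 103.8 and 153.1 against 6.64 and 7.71 and *Cspg4* at 88.96 and 157.8 against 21.4 and 35.2, while *Notch3* was at 0 in both small intestinal libraries, and their part in the *Cxcl16* result was not tested.

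In CD81+ FB, where 0.25% of 11610 genes were called, none of the 6 passed, although *Cxcl16* was called by DESeq2 (adjusted p = 0.0126) and *Cxcl5*, *Cxcl10* and *Cxcl16* without the filter on low counts (0.0199, 0.0412 and 0.00213). Colon was below small intestine without overlap for *Cxcl5*, *Cxcl10* and *Cxcl16*, 3 of 6 genes against 11.8% of all genes. *Cxcl10* was at 858.4 and 1120 CPM in small intestine against 203.3 and 548.5 CPM in colon (difference −1.51, SE 0.54, adjusted p = 0.539), and *Cxcl16* was at 112.9 and 130.5 CPM against 59.4 and 33.7 (−1.55, SE 0.33, adjusted p = 0.214). *Cxcl1* in these cells was at 1812 and 1362 CPM against 1340 and 2938, with the highest value in colon replicate 2.

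In the remaining FB, where 0.313% of 13117 genes were called, none of the 6 passed, and 4 had no overlap, against 16.8% of all genes. *Cxcl5* came nearest and was called by DESeq2, without the filter and after thinning (adjusted p = 4.3e-13, 0.00507 and 0.0186), *Cxcl16* by DESeq2 and without the filter (3.2e-05 and 0.0365) and *Cxcl9* by DESeq2 (0.00842). It was at 69.4 and 82.3 CPM in the small intestinal and 5.90 and 9.58 CPM in the colonic libraries, a difference of −3.30 (SE 0.36, 95% interval −4.25 to −2.34, adjusted p = 0.0711). *Cxcl2* was spread most widely, at 447.5 and 940.3 CPM against 25.5 and 298.4 CPM (−2.09, SE 1.21, adjusted p = 0.718). Its difference was −4.86 to −1.20 with a library left out. *Cxcl9* was at 144.5 and 104.9 CPM against 19.2 and 46.5 (−1.93, SE 0.53, adjusted p = 0.314), and *Cxcl16* at 276.1 and 269.3 CPM against 106.2 and 67.3 (−1.70, SE 0.28, adjusted p = 0.124).

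The size of the intestinal difference was then compared between PDGFRα-high and remaining FB by fitting both classes together, with each library as a block and an interaction of class and intestine (the class by tissue term), a test in which 8.9% of 12741 genes were called. *Cxcl16* differed more in PDGFRα-high FB, by −1.096 (SE 0.15, adjusted p = 0.000313), and *Cxcl1* differed in the other direction, by 0.74 (SE 0.17, adjusted p = 0.0285). The terms of the other 4 genes did not pass, with 1.43 for *Cxcl2* (SE 1.24), 1.36 for *Cxcl10* (SE 0.63), 0.11 for *Cxcl9* (SE 0.49) and −0.02 for *Cxcl5* (SE 0.79). Their intervals were wide, −0.99 to 3.70 for *Cxcl10*, so that differences of several fold between the classes cannot be told from none. Of 11 alternatives, which include fits with a library left out, 3 called *Cxcl10* (range 0.72 to 2.10). *Cxcl2* (0.32 to 2.88) and *Cxcl9* (−0.75 to 0.84) were called in 1 each.

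**Figure D2:**
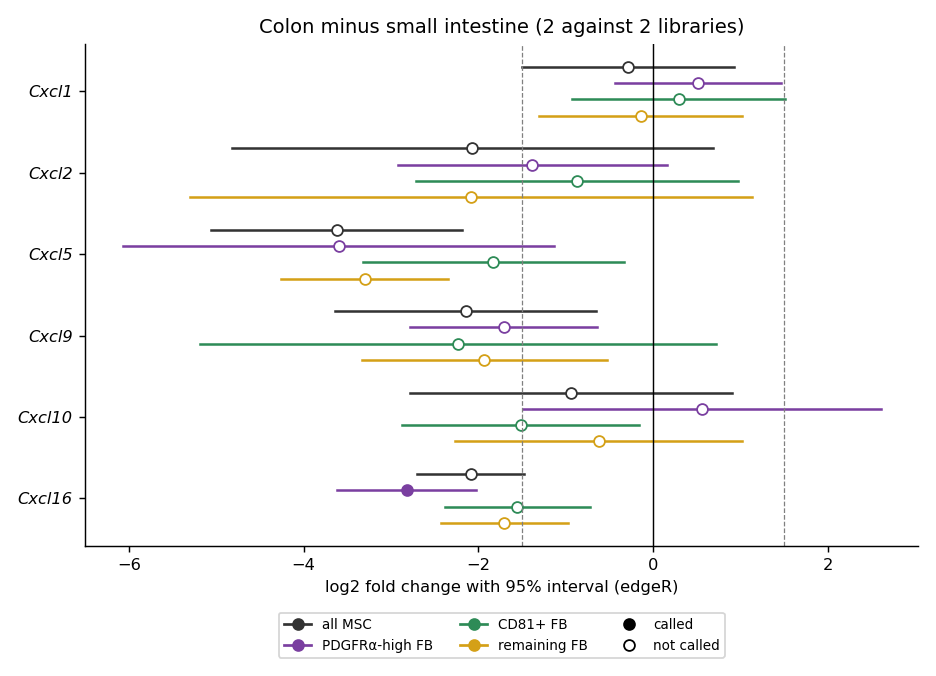
Log2 fold change of colon minus small intestine (edgeR, 2 against 2 libraries) with its 95% interval for each gene in all MSC and 3 FB classes. Filled points passed the test and dashed lines stand at ±1.5. Only *Cxcl16* in PDGFRα-high FB is filled, at −2.82, and *Cxcl1* lies around 0 in all 4 rows.

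The second question was which FB class holds each gene. Each class was compared with the mean of the other FB classes over all 4 libraries, with library as a block and calls beyond a log2 fold change of 1. The 3 comparisons share the same 12 sums. PDGFRα-high FB held less of 3 of the 6 genes, in a comparison that called 14.7% of 12282 genes. The log2 difference was −1.49 for *Cxcl1* (SE 0.18, adjusted p = 0.000143), −1.52 for *Cxcl5* (SE 0.46, adjusted p = 0.032) and −1.53 for *Cxcl10* (SE 0.42, adjusted p = 0.021). *Cxcl2*, *Cxcl9* and *Cxcl16* were not called. *Cxcl2* lay below its level in CD81+ FB in each library. *Cxcl9* lay above its level in CD81+ FB in each library. It was at 33.7 and 53.75 CPM in small intestinal and 9.596 and 14.64 CPM in colonic PDGFRα-high FB. For *Cxcl16* the order of the classes differed between the intestines. Its PDGFRα-high FB at 334.9 and 265.3 CPM stood beside the remaining FB at 276.1 and 269.3 CPM, whereas in colon they stood below them, at 47.0 and 31.1 CPM against 106.2 and 67.3. Over all libraries the class did not pass for *Cxcl16* (−0.18, SE 0.22, adjusted p = 0.557).

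CD81+ FB held little *Cxcl9*, at 2.21 and 42.5 CPM in the small intestinal and 2.66 and 6.92 CPM in the colonic libraries (−1.65, SE 0.50, adjusted p = 0.0418, in a comparison that called 10.5% of the 12282 genes). Small intestine replicate 2 stood apart with 387 of these UMIs, and the other libraries had 6 to 60. *Cxcl1* was higher in CD81+ FB by 0.83 (SE 0.16, adjusted p = 0.00426), which is below the fold asked for. The remaining FB held more *Cxcl5* (2.27, SE 0.37, adjusted p = 0.00991) and more *Cxcl9* (2.09, SE 0.41, adjusted p = 0.0248), in a comparison that called 3.09% of genes. They carried 78.3% to 91.6% of all *Cxcl5* UMIs and 66.5% to 82.2% of all *Cxcl9* UMIs of a library while making up 37.6% to 72.0% of its cells. Some calls were gained in the 11 alternatives, which include fits with a library left out. *Cxcl2* was called lower in PDGFRα-high FB in 2 (range −1.58 to −0.99). In the remaining FB, *Cxcl10* was called higher in 2 (1.07 to 1.29) and *Cxcl2* in 1 (0.60 to 1.33). The calls of *Cxcl5* and *Cxcl9* depended on single libraries. The *Cxcl5* call of the remaining FB was lost without small intestine replicate 2 (adjusted p = 0.0771) or colon replicate 1 (0.0708), and the *Cxcl9* call without colon replicate 1 (0.112) or 2 (0.15). In PDGFRα-high FB, *Cxcl5* was lost without small intestine replicate 2, colon replicate 1 or colon replicate 2 (adjusted p = 0.193, 0.102 and 0.106) and *Cxcl10* without small intestine replicate 2 (0.108). The *Cxcl9* call of CD81+ FB was lost without colon replicate 1 (0.106) or 2 (0.186).

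Of the classes given without a test, pericytes, which wrap capillaries, held the highest *Cxcl1* level among the 5 MSC classes in each library, at 9931 and 2822 CPM in the small intestinal and 4569 and 3122 CPM in the colonic libraries. The 38 pericytes of small intestine replicate 2 carried much FB RNA, with a median FB score of 2.04 against a pericyte score of 1.38 and 11270 CPM of the 6 FB markers, compared with 2813 to 7564 CPM in the pericytes of the other libraries, and its part in the *Cxcl1* level was not tested. In order of mean level in small intestine, pericytes (6376 ± 5027 CPM, SD, n = 2) were followed by remaining FB (1927 ± 90.0), CD81+ FB (1587 ± 318.3), PDGFRα-high FB (661.7 ± 137.1) and SMC (599.8 ± 171.7). Remaining and CD81+ FB differed by about their spread, and PDGFRα-high FB and SMC by less. In colon the order was pericytes (3846 ± 1023), CD81+ FB (2139 ± 1129), remaining FB (1766 ± 860.5), PDGFRα-high FB (856.1 ± 240.1) and SMC (387.5 ± 75.7). SMC and remaining FB shared the *Cxcl5* pattern, with SMC at 75.0 and 62.7 CPM in small intestine against 1.23 and 1.00 CPM in colon, on 29, 20, 3 and 3 UMIs. The median FB score of SMC was 1.73 to 1.94, above the FB cut of 1.5 in each library. The 6 FB markers summed to 14360 CPM in SMC of small intestine replicate 2 and to 5857 to 8981 CPM in the others. The part of FB RNA in this pattern was not tested. *Cxcl5* had 0 UMIs in the pericytes of 3 libraries, which allows up to 6.09 CPM in colon replicate 1 and 45.5 CPM in small intestine replicate 2, and 7 UMIs in small intestine replicate 1. *Cxcl16* in pericytes was at 42.9 and 151.7 CPM in the small intestinal and 14.2 and 21.99 CPM in the colonic libraries, on 3 to 10 UMIs a library, and in small intestine replicate 2 it lay above CD81+ FB (130.5 CPM) and SMC (138.0 CPM).

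**Figure D3:**
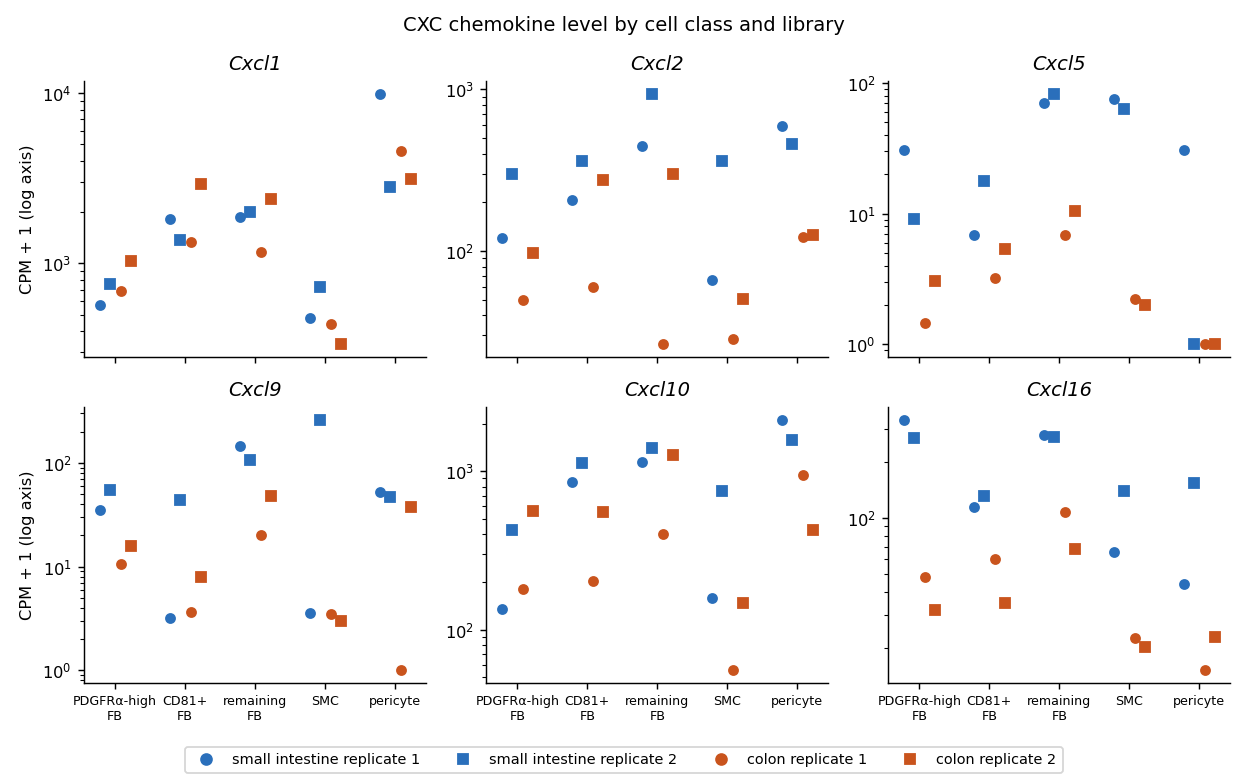
CPM plus 1 (log axis) of each gene in 3 FB classes, SMC and pericytes, 1 point a library (small intestine blue, colon orange, circles replicate 1, squares replicate 2). Of these classes pericytes are highest for *Cxcl1* in each library, and small intestinal remaining FB and SMC are highest for *Cxcl5*.

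**Figure D4:**
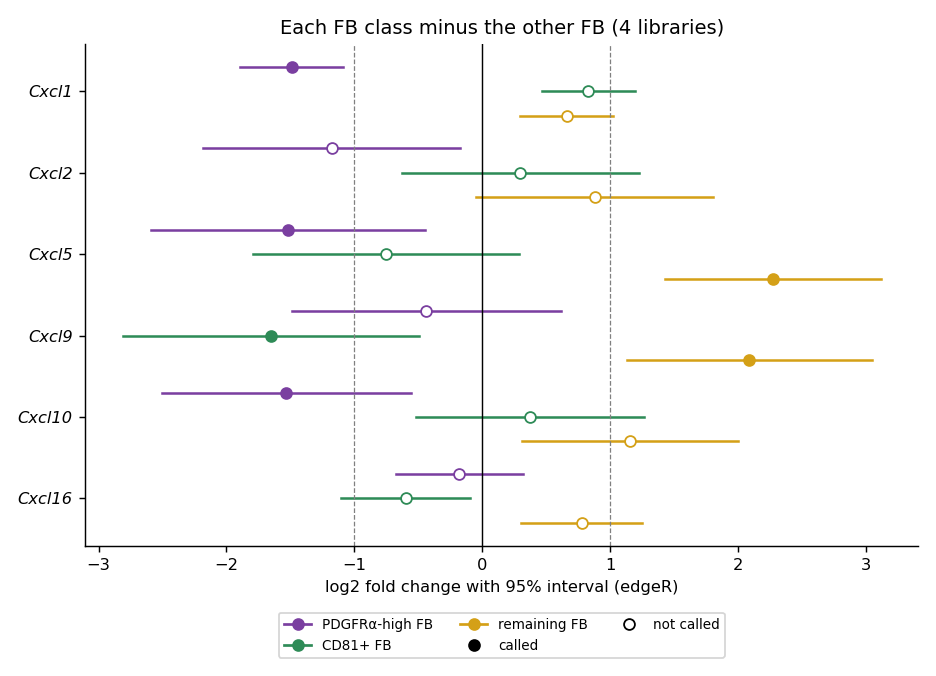
Log2 fold change of each FB class minus the mean of the other FB classes (edgeR, 4 libraries) with its 95% interval; filled points passed the test and dashed lines stand at ±1. PDGFRα-high FB are filled on the lower side for *Cxcl1*, *Cxcl5* and *Cxcl10*, CD81+ FB on the lower side for *Cxcl9*, and remaining FB on the higher side for *Cxcl5* and *Cxcl9*.

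The remaining FB were also split by whether a cell had a UMI of *Fgfr2*, a split that favours deeper cells and was not tested. *Cxcl16* was higher where *Fgfr2* was detected in all 4 libraries, at 312.7 and 322.2 CPM against 215.7 and 243.4 in small intestine and at 125.1 and 94.2 CPM against 76.1 and 58.0 in colon. *Cxcl9* was at 192.7 and 116.8 CPM against 64.9 and 99.1 in small intestine and at 25.7 and 88.3 CPM against 8.82 and 32.0 in colon, but after thinning 3.07% of *Fgfr2* detected and 3.26% of other cells of small intestine replicate 1 held a *Cxcl9* UMI. *Cxcl1* was at like levels on both sides, 1843 and 2154 CPM against 1895 and 1910 in small intestine.

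The genes differed in how evenly cells carried them. The 1% of MSC with most UMIs of a gene held 8.0% to 16.0% of *Cxcl1* UMIs and 5.78% to 16.5% of *Cxcl16* UMIs, but 63.9% to 84.8% of *Cxcl9* UMIs and 37.6% to 84.8% of *Cxcl5* UMIs. *Cxcl10* lay between, at 11.2% to 37.8%, and *Cxcl2* ranged most, from 18.2% in small intestine replicate 2 to 72.3% in colon replicate 1. The *Cxcl9* level of a library could rest on few cells, since 1 cell held 280 of the 889 *Cxcl9* UMIs (31.5%) of small intestine replicate 1 and 1 cell held 49 of the 230 (21.3%) of colon replicate 1. No cell held more than 11 *Cxcl16* UMIs in any library, compared with 85 to 269 for *Cxcl1*. In the colon the top 5% of MSC held all *Cxcl5* and all *Cxcl9* UMIs, which for a gene found in 1.39% to 2.49% of cells follows from its sparsity.

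**Figure D5:**
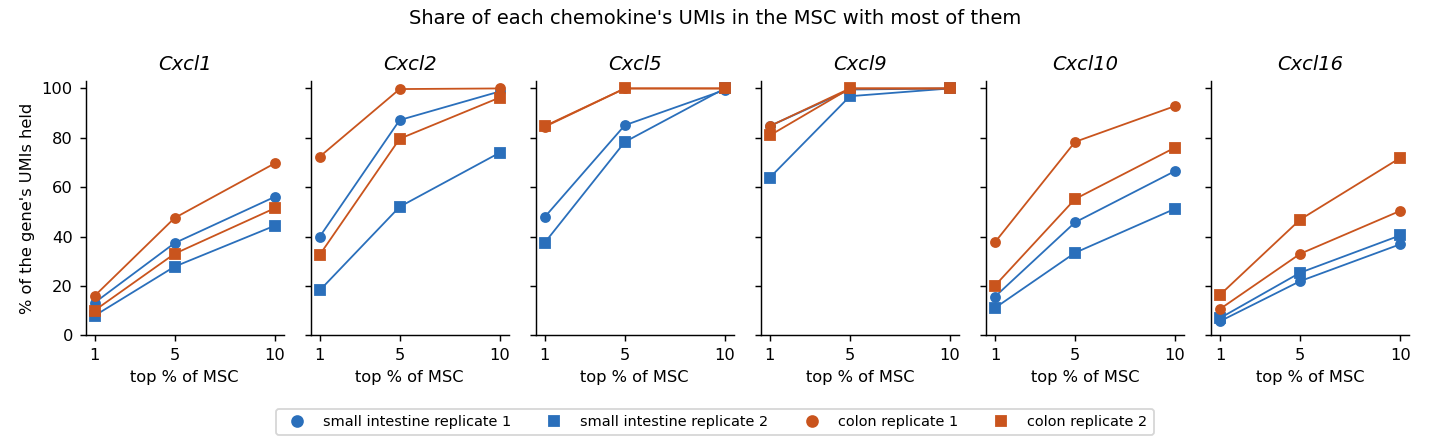
Percent of each gene's UMIs (vertical axis) held by the 1%, 5% and 10% of MSC with most of them, 1 line a library. *Cxcl9* starts at 63.9% to 84.8%, while *Cxcl1* starts at 8.0% to 16.0% and climbs slowly.

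Whether the genes were found in the same cells was described in the remaining FB, each cell thinned to 1000 UMIs, as the number of cells with both genes over the number given by the product of their shares. *Cxcl1* and *Cxcl2* met in 2403 cells of small intestine replicate 2 against 1772 by product, and the ratio was 1.36 to 2.996 over the 4 libraries (Pearson r of thinned counts 0.16 to 0.37). *Cxcl9* and *Cxcl10* had ratios of 1.44 to 4.71 (r 0.12 to 0.23), with 284 cells against 197.4 in small intestine replicate 2 and 112 against 39.3 in colon replicate 2. The 2 receptor groups were not separate, since *Cxcl1* and *Cxcl10* had ratios of 1.18 to 2.04 and r of 0.24 to 0.28. *Cxcl16* met *Cxcl1* about as often as the product of shares, with ratios of 0.886 to 1.02 and r of −0.04 to 0.00. *Cxcl5* and *Cxcl9*, both carried by few cells, met in 71 cells of small intestine replicate 2 against 23.3, and in 4, 0 and 3 cells of the other libraries. *Fos*, an immediate early gene, had ratios of 1.05 to 1.24 and r of 0.26 to 0.41 with *Cxcl1*, and r of −0.06 to −0.01 with *Cxcl16*. The interferon target *Iigp1* had ratios of 1.48 to 4.36 with *Cxcl9* and 0.974 to 1.53 with *Cxcl16*. These values describe cells of single libraries, and even the highest r is weak.

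Gene lists chosen for the pathways around these chemokines were read beside them. Of 25 genes of the interferon response, 23 lay lower in colon in all MSC, with a median difference of −1.102 against 0.000497 over all genes, and 0 were called. Its 3 most abundant genes were *B2m*, the light chain of MHC class I (2328 and 1817 CPM in small intestine, 508.0 and 509.4 in colon), the transcription factor *Irf1* (614.1 and 545.7 against 401.5 and 622.6 CPM) and the GTPase *Iigp1* (360.4 and 354.2 against 70.0 and 141.9 CPM). Of 24 genes of the NF-κB response, 23 were tested in all MSC and 16 lay lower in colon, with a median of −0.40 and 0 called. *Nfkbia*, which encodes the inhibitor IκBα and leads this list, was at 1451 and 1437 CPM against 803.5 and 1430 CPM, *Ier3* at 923.7 and 924.6 against 761.1 and 1255, and the monocyte chemokine *Ccl2* at 665.1 and 525.7 against 128.3 and 268.9. Colon replicate 1 was the lowest library for all 3, as it was for *Cxcl1*, *Cxcl2*, *Cxcl5*, *Cxcl9* and *Cxcl10*.

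Immediate early and heat shock genes, which cell isolation is known to induce, lay the other way. Of 12 such genes 10 lay higher in colon in all MSC (median 0.62, 0 called), and their sum was 27120 and 32930 CPM in small intestine against 43430 and 50530 CPM in colon, led by *Fos*, *Jun* and *Junb*. Their part in the chemokine levels was not tested. In PDGFRα-high FB all 12 lay higher in colon (median 1.099, 0 called), and of the NF-κB list *Ptgs2*, which encodes cyclooxygenase 2, was called higher (2.27, SE 0.30, adjusted p = 0.0483). In the class by tissue term, 12 of 23 NF-κB genes were called with a higher and 1 with a lower difference in PDGFRα-high than in remaining FB, against 8.9% of all genes. The 12 include *Nfkbia* (1.96, SE 0.16, adjusted p = 2.3e-05), *Tnfaip3* (2.35, SE 0.20, adjusted p = 3.2e-05) and *Ier3* (2.10, SE 0.15, adjusted p = 2.9e-06), all 3 in the direction of *Cxcl1*, and the 1 is *Csf1* (−0.98, SE 0.15). The other 9 were *Ereg* (3.72), *Ptgs2* (2.54), *Il1r1* (1.89), *Nfkbiz* (1.58), *Birc3* (1.403), *Zc3h12a* (1.399), *Nfkb1* (0.94), *Ccl2* (0.59) and *Sod2* (0.51). Of the immediate early list, 7 of 12 were called higher in the same term, again against 8.9%, from *Jund* (0.61) to *Zfp36* (1.15), with *Jun*, *Junb*, *Fosb*, *Egr1* and *Ier2* between. Of the interferon list *Gbp5* (1.45) and *Irf1* (0.86) were called higher and *Ifit1* (−1.17) lower. *Cxcl14* (0.82) and *Cx3cl1* (−4.11) passed among the other chemokines. The 6 pericyte markers summed to 938.4 and 803.1 CPM in remaining FB of small intestine and 82.8 and 101.7 CPM in those of colon, led by *Rgs5*, which was at 905.6 and 724.0 CPM in remaining FB of small intestine and 44.2 and 45.8 CPM in those of colon, while *Notch3* was at 1.00 to 1.27 CPM in all 4. Their part was not tested either.

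PDGFRα-high FB held less of 6 of the 23 NF-κB genes tested against the other FB and more of none, where 14.7% of all genes were called. The log2 difference was −3.53 for *Il6* (SE 0.45), −3.23 for *Ccl2* (SE 0.22), −2.12 for *Lif* (SE 0.24), −1.60 for *Vcam1* (SE 0.14), −1.52 for *Icam1* (SE 0.10) and −1.26 for *Nfkbia* (SE 0.41), all with adjusted p of at most 0.04. CD81+ FB held more of 5, against 10.5% of all genes called, namely *Il6* (2.46), *Ccl2* (2.15), *Ccl7* (1.78), *Lif* (1.54) and *Nfkbiz* (1.01). The immediate early gene *Atf3* was lower in PDGFRα-high FB (−1.51) and higher in CD81+ FB (1.18). The remaining FB held more of 2, against 3.09% of all genes called, *Vcam1* (1.32) and *Ccl2* (1.08). For the interferon list 1 of 25 genes was called in PDGFRα-high FB (*Gbp4*, 1.04) and the same gene in CD81+ FB (−1.24), with 0 in the remaining FB.

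Receptors were next to absent from the MSC. *Cxcr1* and *Cxcr5* had 0 UMIs in all 4 libraries, and *Cxcr2*, *Cxcr3* and *Cxcr6*, the receptors of the 3 ligand groups, had 0 to 5 UMIs a library. Of the atypical receptors, which bind chemokines without signalling for migration, *Ackr2* had 0 to 46 UMIs a library, at most 0.91 CPM. *Ackr3* stood at 55.2 to 175.7 CPM and *Ackr4*, one of the markers of the CD81 gate, at 21.2 to 99.9 CPM. *Ackr1*, which binds CXC and CC chemokines alike, was at 2.61 to 9.36 CPM, lower in PDGFRα-high FB (−3.26, SE 0.30, adjusted p = 2.6e-05) and higher in CD81+ FB (2.62, SE 0.22, adjusted p = 3.6e-05). *Ackr3* was lower in PDGFRα-high FB (−2.23, SE 0.47). *Ackr4* was lower in PDGFRα-high FB (−5.00, SE 0.57) and higher in CD81+ FB (6.03, SE 0.40), the class it helped to define. The sheddases *Adam10* and *Adam17*, which release CXCL16 from the membrane, stood at 25.7 to 46.7 and 30.6 to 50.2 CPM. Among other CXC chemokines, the homeostatic *Cxcl12* (828.1 to 2698 CPM), *Cxcl13* (76.1 to 200.6 CPM) and *Cxcl14* (86.3 to 277.7 CPM) led, and *Cxcl14* was higher in PDGFRα-high FB (2.70, SE 0.24, adjusted p = 6.6e-05) and lower in CD81+ FB (−3.42, SE 0.30, adjusted p = 0.000123). *Cxcl3*, a further CXCR2 ligand, had 21 to 42 UMIs a library. *Pf4* was lower in CD81+ FB (−1.34) and higher in the remaining FB (1.93).

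Genes whose level ran most like each chemokine were sought over 16 sums (3 FB classes and SMC in 4 libraries) among 11840 genes, as Pearson r of log2(CPM + 1). Sums of one library share its depth and handling. Nearest to *Cxcl1* were *Stx11* (r = 0.93), *Adam17* (0.92) and *Sat1* (0.92), and nearest to *Cxcl10* were *Sowahc* (0.90), *Spats2* (0.90) and *Birc3* (0.89). Nearest to *Cxcl16* were *Tap1*, the peptide transporter of MHC class I (0.94), *D630003M21Rik* (0.94) and *Rnf213* (0.93). *Cxcl2* ran with *Bmp2k* (0.89), *Nhs* (0.89) and *Rnf31* (0.88), *Cxcl5* with *Aldh1a3* (0.89), *Slc36a1* (0.87) and *Tmem56* (0.87), and *Cxcl9* with *Pcdhb16* (0.86), *Ddi2* (0.86) and *Col6a5* (0.86). Among the chemokines themselves, *Cxcl10* ran with *Cxcl2* (0.82) and *Cxcl1* (0.79) across the 2 receptor groups, whereas *Cxcl1* and *Cxcl5*, both CXCR2 ligands, had r of 0.19. *Cxcl16* ran with *Cxcl5* (0.73) and *Cxcl9* (0.71) more than with *Cxcl1* (0.27).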

How the data were processed

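Single-cell RNA-seq libraries of sorted MSC (2 small intestine, 2 colon) were made with a 10x 3′ v3 or 5′ kit (which library had which: not given in the sources used here). Raw UMI counts per gene and barcode on mm10 were deposited by the authors (Cell Ranger 3.0.2 for replicate 1 and 3.1.0 for replicate 2, per the file headers). Of 34983 barcodes, the 32216 with 500 or more genes, 1000 or more UMIs and a mitochondrial share of 10% or less were kept. Cells were gated by mean ln(1 + UMIs per 10000) of fixed markers, with cuts set after the scores had been seen. No doublet caller was run. Cells that passed the gate of a non-MSC class and any further gate (27 to 47 a library) were removed, as were cells of both FB gates (0 to 35). Other cells over the pericyte or SMC cut were kept as pericytes or SMC whatever their FB score. Sums over the cells of a class in a library were tested with edgeR 4.0.16 (R 4.3.3, filterByExpr, TMM, robust quasi-likelihood fit, Benjamini-Hochberg adjustment over all genes). P-values between the intestines measure the spread between 2 pools of an intestine. Those of the FB class tests and the class by tissue term measure the spread of class differences between libraries. Alternatives were DESeq2 1.42.0, its size factors, no low-count filter, a minimum of 1000 genes, a stricter gate, the top 5% of UMIs left out, thinning to 1000 UMIs, a replicate block and each library left out. The steps were tested on simulated counts. Genes of the pathway lists were named if called or among the 3 most abundant of their list. The members, lists and cell classes were chosen with earlier results of these data known. All 6 members entered each test. Sequences are from RefSeq, of which 4 of 6 members had a promoter, and positions from GENCODE vM21.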

Additional observations from a re-analysis of the deposited data

Results flagged for a closer look

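*Cxcl1* was flagged because its colon minus small intestine difference was not the same in PDGFRα-high and remaining FB. The class by tissue term was 0.7438 on the log2 scale (adjusted p = 0.0285 by edgeR), and both colon libraries lay above the same-numbered small intestinal library in PDGFRα-high FB, by 0.28 and 0.43, whereas the remaining FB gave −0.69 and 0.25. It stayed under an adjusted p of 0.05 in 11 of 11 alternatives (0.53 to 0.97, adjusted p 1.8e-07 to 0.0405).

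*Cxcl16* was flagged on the same term in the other direction, at −1.096 (adjusted p = 0.000313). In PDGFRα-high FB the same-numbered differences were −2.81 and −3.05, and in the remaining FB −1.37 and −1.99. It stayed under an adjusted p of 0.05 in 11 of 11 alternatives (−1.23 to −0.96, highest adjusted p 0.000273).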

How the results depend on the processing

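Members' log2 fold changes kept their direction and side of the threshold in 315 of the comparisons of a gene and a setting without a library left out, became called in 34, lost the call in 6 and changed sign in 3. With a library left out the counts were 160, 9, 12 and 11. Beyond the study's remark on sorted subsets, it is not stated whether libraries with the same number share animals. Their deviations ran together (r = 0.79 in all MSC, 0.70, 0.62 and 0.76 in PDGFRα-high, CD81+ and remaining FB), which with 2 pairs is a hint from the data only. With replicate number as a block, *Cxcl2* (−2.47, adjusted p = 0.0407), *Cxcl5* (−3.68, 0.00102), *Cxcl9* (−2.28, 0.0474) and *Cxcl16* (−2.10, 0.000852) were called in all MSC, and genes called between the intestines numbered 874 in all MSC, 909 in PDGFRα-high, 250 in CD81+ and 670 in remaining FB, against 0, 154, 29 and 41. In the same order DESeq2 called 557, 527, 220 and 423, and no low-count filter 206, 580, 335 and 251. In all MSC, RLE size factors called 56, the stricter gate 32 and thinning 71; the stricter gate called 46 in CD81+ FB. Thinning called 119 in remaining FB between the intestines, 1101, 774 and 236 for PDGFRα-high, CD81+ and remaining FB against other FB (1811, 1290 and 379 at full depth) and 668 for the class by tissue term (1134).

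With a library left out, the lone library of an arm is assumed to vary like the others. Calls then ranged from 0 to 62 in all MSC, 1 to 321 in PDGFRα-high FB, 0 to 286 in CD81+ FB, 0 to 128 in remaining FB between the intestines, and 166 to 297 for remaining against other FB. Sign changes came with ranges of −0.98 to 0.18 (*Cxcl1*, all MSC), −0.44 to 0.77 (*Cxcl1*, CD81+ FB), −0.83 to 0.31 (*Cxcl1*, remaining FB), −0.59 to 1.64 (*Cxcl10*, PDGFRα-high FB), −3.27 to 1.00 (*Cxcl9*, CD81+ FB), −0.43 to 0.034 (*Cxcl16*, PDGFRα-high against other FB), −1.22 to 1.01 (*Cxcl5*) and −0.32 to 0.84 (*Cxcl9*) in the class by tissue term. In that term *Cxcl9* was −0.33 without the top 5% of UMIs and −0.75 thinned, and *Cxcl5* 0.55 thinned, against 0.11 and −0.02. Mean small intestinal CPM moved by more than 1 SD for *Cxcl1* (1626 thinned, 1741 without the top 5%, 1808 with the stricter gate, 1779 as reported), *Cxcl9* (80.2 thinned, 98.8 stricter gate, 87.0 as reported) and *Cxcl16* (242.5 stricter gate, 234.2 as reported). The *Cxcl5* call of PDGFRα-high FB was also lost without the filter, with the stricter gate and without the top 5% (adjusted p 0.064, 0.0527 and 0.0718), the *Cxcl9* call of CD81+ FB without the filter and with the stricter gate (0.0915 and 0.0657), and that of remaining FB without the filter (0.0582). Calls between the intestines gained in single classes, other than those given above, were *Cxcl5* and *Cxcl9* in PDGFRα-high FB with the replicate block and DESeq2 (adjusted p 4.5e-08 and 0.00443, 2.3e-14 and 0.0318), *Cxcl9* there without the filter (0.0182), *Cxcl5* and *Cxcl16* with the block in CD81+ (0.0373 and 0.0305) and remaining FB (0.0003 and 0.00151), and, with a colon library left out, *Cxcl16* (0.0103, replicate 1) and *Cxcl2* (0.0316, replicate 2) in CD81+ FB and *Cxcl5* in remaining FB (0.0273, replicate 1). The cause was not tested. Depth limits *Cxcl5* and *Cxcl9* in colon, where single classes held 0 to 65 UMIs in replicate 1 outside the remaining FB.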
